A study of Mus musculus with 9 samples.

Results

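The H2 genes of the mouse major histocompatibility complex were followed at their promoters in cells with and without the repressor Snai1. Windows of the authors' deposited promoter table were given to RefSeq genes by position, and the 10 listed H2 genes of chromosome 17 were taken: 6 of class I (H2-K1, H2-K2, H2-D1, H2-T22, H2-T23 and H2-T24) and 4 of class II (H2-Oa, H2-Ob, H2-DMa and H2-DMb1). Each of the 10 had 1 window, out of 10271 windows and 10200 genes in all. Accessibility was measured by ATAC-seq (Tn5 inserts sequencing adapters where DNA is open) in HPC7, a blood progenitor line of the mouse that is kept in stem cell factor. One group carried the empty MIG retroviral vector (EV) and the other the same vector encoding wildtype, FLAG-tagged Snai1, a zinc finger repressor, with 3 libraries each by the labels. Another 3 libraries, with the mutant mut5Snai1, were not analysed here. The table holds 1 value per group and none per library, so values below carry no SD, and whether replicate libraries stem from independent transductions is not stated, so the authors' p-values may measure technical spread alone. Expression of Snai1 or of any H2 gene was not measured in these data.

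Class I molecules are cell surface receptors that pair with beta-2 microglobulin and show peptides made in the cell to cytotoxic T cells and natural killer cells. Class II molecules show peptides taken up from outside to helper T cells, and are mostly made by B cells, dendritic cells and macrophages. Promoters of both classes carry a conserved set of elements, the X and Y boxes, on which the RFX and NF-Y complexes assemble and recruit the coactivators Nlrc5 (class I) and Ciita (class II); class I promoters add a kappaB element, enhancer A, and an interferon response element. The H2-DM and H2-O genes encode accessory molecules: H2-DM loads peptide onto class II molecules inside the cell, and H2-O holds H2-DM in check.

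The promoter sequences show how the members resemble one another, and RefSeq (GRCm38.p6, the coordinates of mm10) held one for 8 of the 10 members. Printed are those of the members that were higher in Snai1 cells and, for contrast, that of H2-DMa, which had the smallest change. The H2-DMa sequence was taken at a start 3139 bases inside the annotated gene. Each runs from 250 bases before to 50 bases after a RefSeq start, 5′ to 3′ on the gene's strand. Capitals mark matches on either strand to AGCAAC (X1 core), TGACG (X2 core), ATTGG (Y box), GGGATTCCC (enhancer A kappaB) and the interferon response cores GAAANNGAA and AANNGAAAC, the last pair of which can overlap.
H2-K1 (chr17:34000284-34000583, minus strand): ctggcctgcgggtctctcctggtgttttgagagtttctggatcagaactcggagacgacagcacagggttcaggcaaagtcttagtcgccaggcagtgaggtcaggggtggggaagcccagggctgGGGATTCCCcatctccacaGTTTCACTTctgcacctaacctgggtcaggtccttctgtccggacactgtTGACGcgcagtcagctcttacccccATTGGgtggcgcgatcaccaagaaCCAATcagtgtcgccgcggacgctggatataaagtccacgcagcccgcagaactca
H2-D1 (chr17:35262844-35263143, plus strand): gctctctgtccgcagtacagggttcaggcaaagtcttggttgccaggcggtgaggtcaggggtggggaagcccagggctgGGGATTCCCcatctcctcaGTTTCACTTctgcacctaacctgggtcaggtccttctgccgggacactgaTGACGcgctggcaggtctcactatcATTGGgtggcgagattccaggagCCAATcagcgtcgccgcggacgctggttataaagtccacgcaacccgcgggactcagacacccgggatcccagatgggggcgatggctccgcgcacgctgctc
H2-T22 (chr17:36042693-36042992, minus strand): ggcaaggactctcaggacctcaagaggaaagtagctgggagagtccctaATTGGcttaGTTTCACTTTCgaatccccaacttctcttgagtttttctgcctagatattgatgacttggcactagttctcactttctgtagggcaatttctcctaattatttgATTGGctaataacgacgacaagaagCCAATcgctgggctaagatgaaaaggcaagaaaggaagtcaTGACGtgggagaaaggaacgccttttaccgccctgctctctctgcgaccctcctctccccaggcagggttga
H2-T23 (chr17:36032652-36032951, minus strand): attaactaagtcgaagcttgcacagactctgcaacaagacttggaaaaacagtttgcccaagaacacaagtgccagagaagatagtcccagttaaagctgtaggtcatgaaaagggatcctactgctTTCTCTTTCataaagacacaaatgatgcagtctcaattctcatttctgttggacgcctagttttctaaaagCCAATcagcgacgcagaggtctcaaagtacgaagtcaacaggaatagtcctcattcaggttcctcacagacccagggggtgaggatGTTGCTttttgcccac
H2-Oa (chr17:34092129-34092428, plus strand): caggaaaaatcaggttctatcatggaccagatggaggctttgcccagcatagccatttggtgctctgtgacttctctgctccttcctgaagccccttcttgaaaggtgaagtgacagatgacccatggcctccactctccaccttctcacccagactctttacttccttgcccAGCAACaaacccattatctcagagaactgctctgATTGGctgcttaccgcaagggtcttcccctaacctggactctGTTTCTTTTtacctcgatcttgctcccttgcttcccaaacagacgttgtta
H2-Ob (chr17:34238655-34238954, plus strand): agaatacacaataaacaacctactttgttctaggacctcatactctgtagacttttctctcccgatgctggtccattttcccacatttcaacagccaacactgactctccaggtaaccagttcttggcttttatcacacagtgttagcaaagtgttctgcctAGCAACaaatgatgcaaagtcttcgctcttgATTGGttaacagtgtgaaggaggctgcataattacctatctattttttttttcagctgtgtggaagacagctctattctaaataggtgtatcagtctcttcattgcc
H2-DMa (chr17:34122582-34122881, plus strand): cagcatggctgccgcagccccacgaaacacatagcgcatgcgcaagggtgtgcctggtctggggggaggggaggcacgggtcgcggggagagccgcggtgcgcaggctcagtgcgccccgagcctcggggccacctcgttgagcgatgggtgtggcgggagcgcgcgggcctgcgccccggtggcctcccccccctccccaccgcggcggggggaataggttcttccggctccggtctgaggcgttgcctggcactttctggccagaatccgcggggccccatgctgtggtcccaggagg

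All 6 class I promoters were more accessible in Snai1 cells in the authors' deposited table. So were those of the H2-O pair, H2-Oa and H2-Ob, of class II. The H2-DM genes, H2-DMa and H2-DMb1, did not pass. In bulk libraries, more cells with an open promoter and more open DNA per cell cannot be told apart. The authors' deposited table thus called 8 of the 10 members higher and 0 lower at an FDR under 0.05, where 29.9% of all windows were called, 19.6% higher and 10.3% lower. The rise was 4.03-fold at H2-K1, 1.54-fold at H2-Ob and between 1.14-fold and 1.28-fold at the other 6. The median change of all windows was 0.08 on the log2 scale, and those 6 changed by 0.19 to 0.36. After that median was subtracted and the changes were tested again, 3 members were called higher (H2-K1, H2-Ob and H2-T23), where 7.21% of all windows were higher and 13.8% lower.

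**Figure D1:**
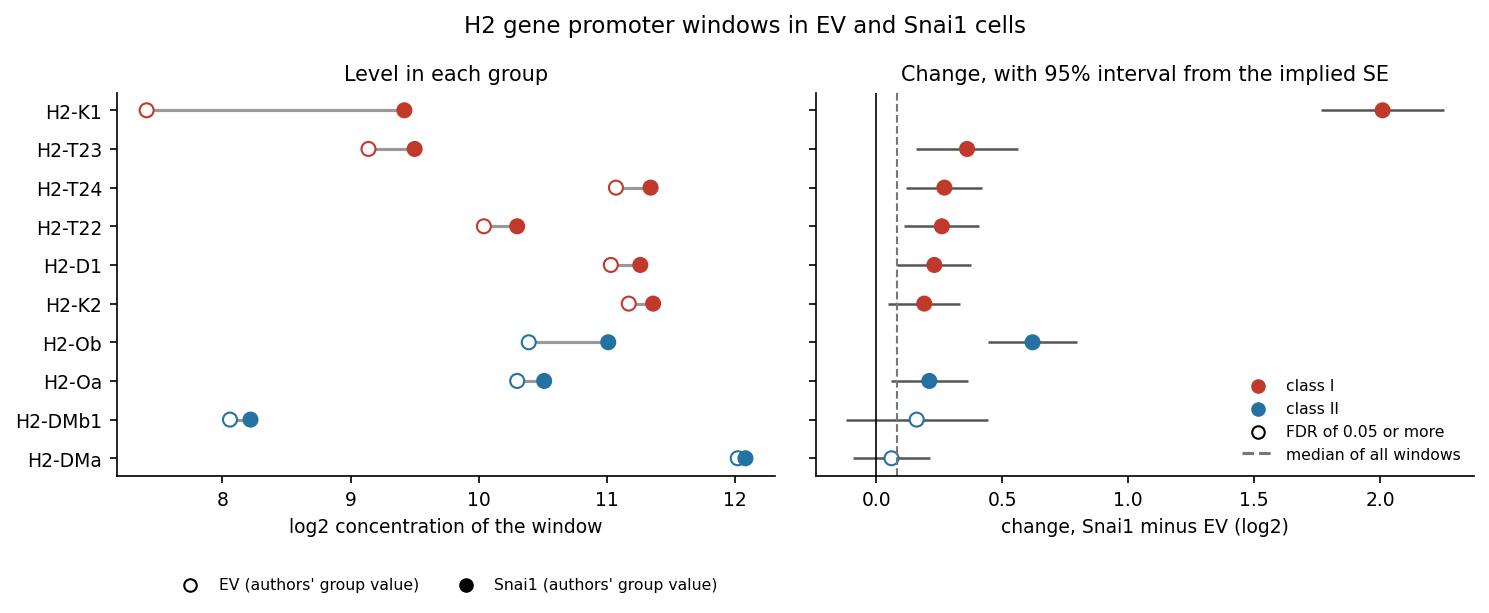
The left panel gives the authors' log2 concentration of each H2 window in EV (open) and Snai1 (filled), and the right panel the change with its 95% interval from the implied standard error (open: FDR of 0.05 or more). H2-K1 rose from 7.41 to 9.42, H2-Ob from 10.39 to 11.01, and all other changes lay between 0.06 and 0.36.

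H2-K1, which encodes the classical class I heavy chain K, changed most. In the authors' deposited table its window (chr17:34000233-34001333, mm10) had a log2 concentration, DiffBind's measure of normalized read density, of 7.41 in EV and 9.42 in Snai1. The change was 2.01 with an implied standard error of 0.13 (worked back from the authors' p-value, FDR 2.68e-55), a 4.03-fold rise with a 95% interval of 3.40 to 4.78. The window spans a RefSeq transcript start of the gene, running from 1000 bases before it to 100 bases after it, and that start lies 286 bases inside the outermost annotated boundary. Its change had rank 1 among the windows of chromosome 17 and rank 25 among all windows. In EV the H2-K1 window stood at percentile 4.14 of windows of its width, and in Snai1 at 17.5. Of the 454 windows no more accessible in EV than H2-K1, 67 were called higher in the authors' deposited table and 24, H2-K1 included, changed by at least as much. H2-K1 still changed by 1.93 after the median of all windows was subtracted (re-tested FDR 5.04e-51).

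**Figure D2:**
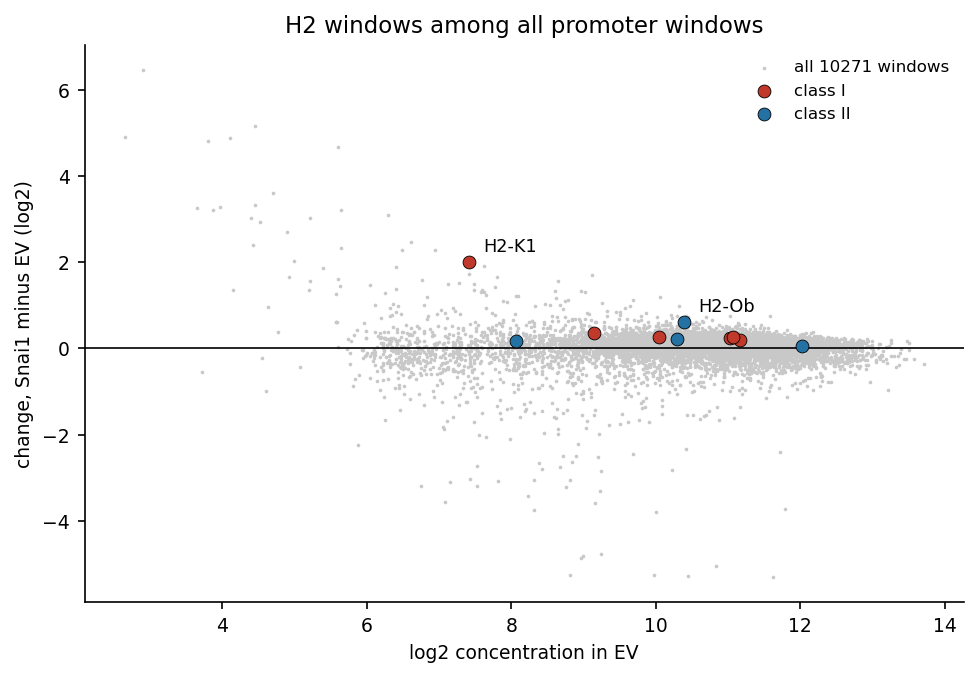
Each grey point is one of 10271 windows, by its log2 concentration in EV and its change, with class I in red and class II in blue. H2-K1 lies among weakly open windows at a change of 2.01, H2-Ob at 0.62, and the other members at 0.06 to 0.36.

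Neither of the windows beside H2-K1 passed. In the authors' deposited table the nearest window before it, at the non-coding gene AA388235 18.8 kb away, went from 11.46 to 11.58 (change 0.12, FDR 0.181). The nearest after it, at the Polycomb gene Ring1 24.3 kb away, went from 10.70 to 10.74 (change 0.04, FDR 0.711). H2-K2, the next H2 gene, is annotated in RefSeq as a transcribed pseudogene. Its window (33978691 to 33979791) rose from 11.17 to 11.36 in the authors' deposited table, a change of 0.19 (implied standard error 0.07, FDR 0.0347); against the median of all windows it was 0.11, with a re-tested FDR of 0.309.

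H2-D1 encodes the other classical class I heavy chain of the reference strain, and its promoter is the closest relative of the one at H2-K1. The 28 pairs of member promoters were aligned with no penalty for gaps at the ends. Under that scoring only H2-K1 and H2-D1 shared at least 100 aligned bases: 222 of 253 aligned bases were identical (87.7%). Both hold the kappaB, second interferon response, X2 and Y matches in the same order, with the X2 core 25 bases before the Y box in each. No stretch of 50 bases was identical between them. Their levels and changes differed: in the authors' deposited table the H2-D1 window (35262094 to 35264094) rose from 11.03 to 11.26. That change of 0.23 (implied standard error 0.08, FDR 0.0113) was 1.17-fold, with a 95% interval of 1.06 to 1.30 that does not overlap the interval of H2-K1. The window at H2-D1 was also longer, so levels are compared per kb: 7.27 for H2-K1 and 10.03 for H2-D1 in EV, and 9.28 and 10.26 in Snai1. As percentiles of windows of the same width, H2-K1 and H2-D1 stood at 4.14 and 52.9 in EV, and at 17.5 and 59.6 in Snai1. Against the median of all windows H2-D1 changed by 0.15 (re-tested FDR 0.15) and was no longer called.

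The class Ib genes H2-T24, H2-T23 and H2-T22 lie side by side, with 12.1 and 10.0 kb between their windows, and rose by like amounts. H2-T23 encodes Qa-1, a ligand of the inhibitory natural killer receptor CD94/NKG2A; its window (36032601 to 36033701) went from 9.14 to 9.50 in the authors' deposited table, a change of 0.36 (implied standard error 0.10, FDR 0.00332). H2-T22, whose product is recognised by gamma delta T cells, went from 10.04 to 10.30 in the authors' deposited table (36042602 to 36043702; change 0.26, implied standard error 0.08, FDR 0.00417). H2-T24, a class Ib gene, went from 11.07 to 11.34 in the authors' deposited table (36020460 to 36021560; change 0.27, implied standard error 0.08, FDR 0.00321). All 3 thus changed by 0.26 to 0.36. The flanking windows, at the non-coding gene A930015D03Rik 26.1 kb before H2-T24 and at the RNase P subunit gene Rpp21 215.1 kb after H2-T22, changed by 0.05 and 0.12 in the authors' deposited table (FDR 0.657 and 0.312). Set against the median of all windows, H2-T23 was still called (0.28, re-tested FDR 0.0344), while H2-T24 (0.19, FDR 0.0615) and H2-T22 (0.18, FDR 0.0756) were not. Of the 251 stretches of 50 bases in the H2-T23 promoter, 37 occur identically in that of H2-T-ps, so the source of reads there is uncertain. The window of H2-T22 also holds the start of Gm6034 on the other strand, and ATAC-seq reads do not tell strands apart.

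H2-Ob and H2-Oa encode the beta and alpha chains of H2-O. In the authors' deposited table the H2-Ob window (34237905 to 34239905) rose from 10.39 to 11.01, a change of 0.62 (implied standard error 0.09, FDR 2.37e-10) or 1.54-fold, with a 95% interval of 1.36 to 1.74. It stood at percentile 28.2 of windows of its width in EV and 48.3 in Snai1. The H2-Oa window (34091379 to 34093379) rose less, from 10.30 to 10.51 in the authors' deposited table (change 0.21, implied standard error 0.08, FDR 0.0294). With the median of all windows subtracted the change was 0.54 at H2-Ob (re-tested FDR 4.94e-08) and 0.13 at H2-Oa (re-tested FDR 0.251), so only the former kept its call. Both promoters hold an X1 core followed on the same strand by a Y box, 31 bases apart in H2-Ob and 34 in H2-Oa. Around H2-Ob, the windows at the peptide transporter gene Tap2 (34.4 kb before) and at BC051142 (159.9 kb after) had changes of -0.01 and -0.16 in the authors' deposited table, and neither passed.

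Neither H2-DM gene passed. In the authors' deposited table H2-DMb1, the beta chain gene, was weakly open: its window (34152191 to 34154191) had 8.06 in EV and 8.22 in Snai1, a change of 0.16 with an implied standard error of 0.14 (FDR 0.412). The interval of that change, -0.12 to 0.44, holds the changes of all the called members but H2-K1 and H2-Ob. H2-DMa, the alpha chain gene, had 12.02 and 12.08 in the authors' deposited table (34121832 to 34123832; change 0.06, FDR 0.593; -0.02 against the median of all windows). That window lies 3139 bases inside the annotated gene, at another RefSeq transcript start, and also holds the start of the bromodomain gene Brd2 on the opposite strand, so its reads cannot be assigned to either gene. The sequence printed for H2-DMa, taken at that inner start, holds none of the 6 capitalised motifs. Sequence at other starts of H2-DMa was not examined, so the absence covers this start only. The remaining H2-DM gene, H2-DMb2, which is not a listed member, had 8.18 and 8.14 in the authors' deposited table (change -0.04, FDR 0.863), at a window 2187 bases inside the gene.

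**Figure D3:**
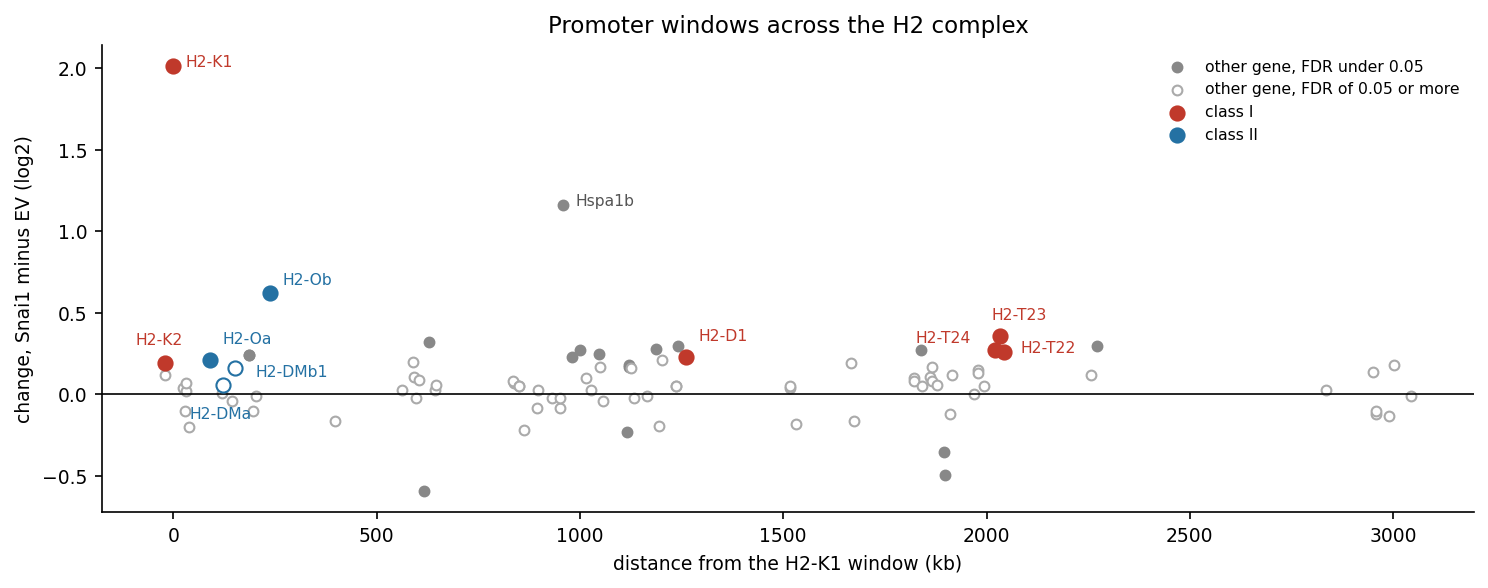
Each point is a promoter window of the H2 complex, by its distance in kb from the H2-K1 window and its change (filled: FDR under 0.05), with class I in red and class II in blue. H2-K1 (2.01), Hspa1b (1.16) and H2-Ob (0.62) stand above windows that mostly lie near 0.

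Between neighbours, the order of the changes held 1 clear step. H2-K1 exceeded H2-Ob by 1.39 (combined implied standard error 0.16), more than 1.96 standard errors, whereas H2-Ob exceeded H2-T23 by 0.26 (0.14), which was within them. Every other step between neighbours in that order was at most 0.10 and within 1.96 combined standard errors. By class, the authors' deposited table called 6 of 6 class I members higher (median change 0.27) and 2 of 4 class II members (median 0.19). Without H2-K1 the class I median was 0.26, and without H2-Ob that of class II was 0.16. The gap between the class medians, 0.08, was not tested; it was 0.05 without the windows in the lowest decile of level, which leaves out H2-K1 and H2-DMb1. Of the 8819 windows within the members' range of mean level, 20.9% were called higher.

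In level per kb the order was nearly the same in both groups. H2-K2 (11.03 in EV, 11.22 in Snai1), H2-DMa (11.02 and 11.08) and H2-T24 (10.93 and 11.20) were the most open. H2-D1, H2-T22, H2-Ob, H2-Oa and H2-T23 followed in that order in both groups, H2-D1 at 10.03 and 10.26. H2-K1 (7.27 and 9.28) was the ninth in both groups, and H2-DMb1 (7.06 and 7.22) the last. The spread of a level cannot be given, so neighbours in either order cannot be told apart by test.

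Other windows of the region were read beside the members. From the first to the last H2 gene (chr17:33974659-37483554, 3.51 Mb) RefSeq lists 46 genes named H2-, of which 13 had a window. The interval held 92 windows, of which the authors' deposited table calls 21 higher and 4 lower (median change 0.06). The balance turned with the centre: 6 were higher and 7 lower against the median of all windows, and 3 and 8 against that of the rest of chromosome 17. Without the 10 members 13 of 82 were higher (15.9%, median 0.05), against 95 of 494 (19.2%, median 0.10) on the rest of chromosome 17. When the median of the rest of chromosome 17 was subtracted, only H2-K1 (1.91, re-tested FDR 5.31e-50) and H2-Ob (0.52, 1.66e-07) of the members were called, H2-T23 having an FDR of 0.0548, where 5.78% of all windows were higher and 15.0% lower. At the stricter FDR of 0.01, which 11.2% of all windows passed as higher, 5 members were called in the authors' deposited table: H2-K1, H2-Ob, H2-T22, H2-T23 and H2-T24.

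Outside the members, Hspa1b, which encodes an inducible HSP70 chaperone, rose most within the complex, from 8.62 to 9.78 in the authors' deposited table (change 1.16, implied standard error 0.10, FDR 8.14e-28). The largest falls were at Egfl8 (-0.59, FDR 0.0212) and at 2 windows of 2310061I04Rik (-0.49 and -0.35, the latter 4269 bases inside the gene). None of the other genes named H2- passed. H2-M5, a class Ib gene, had 6.55 and 6.42 in the authors' deposited table (change -0.13, FDR 0.677), at a window 8451 bases inside the gene. H2-Ke6 had 7.09 and 6.99 (change -0.10, FDR 0.709); it encodes a hydroxysteroid dehydrogenase despite its name.

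Of 9 genes for partners of class I molecules in peptide loading, the authors' deposited table called 4 higher and 0 lower (median change 0.17), beside 19.6% of all windows higher. The other 5 had changes from -0.01 to 0.17. B2m, the light chain of every class I molecule, rose from 11.30 to 11.56 in the authors' deposited table (change 0.26, FDR 4.97e-04). Pdia3, a disulfide isomerase of the loading complex, rose by 0.25 (FDR 0.00462), Tap1, a subunit of the peptide transporter, by 0.24 (FDR 0.00561), and Tapbp, which encodes tapasin, by 0.20 (FDR 0.0271). With the median of all windows subtracted, 1 of the 4 (B2m, 0.18, re-tested FDR 0.0274) was still called, beside 7.21% of all windows. Against the median of the rest of chromosome 17, B2m was not called (re-tested FDR 0.0577). Within 5 Mb the median change was 0.18 around B2m (88 windows) and 0.175 around Pdia3 (80 windows), and each gene exceeded its own by 0.08. Around Tap1 it was 0.10 and around Tapbp 0.09.

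Of 9 genes of proteasome catalytic and activator subunits, which cut and feed the peptides, the authors' deposited table called 4 higher and 1 lower (median 0.15), beside 19.6% and 10.3% of all windows. Psmb10 (0.45, FDR 0.0028) and Psmb9 (0.24, FDR 0.00372), both immunoproteasome subunits, rose, as did the activator genes Psme3 (0.25, FDR 0.0103) and Psme2 (0.21, FDR 0.0332). Psmb8, another immunoproteasome subunit gene, did not pass and went from 9.61 to 9.51 (change -0.10, FDR 0.493). The window of Psmb9 overlaps that of Tap1, so these are not separate observations. Against the median of all windows 1 was higher, Psmb10 (0.37, re-tested FDR 0.0208), and 1 lower; Psmb9 (FDR 0.0862), Psme3 (0.124) and Psme2 (0.264) were no longer called. Psmb6, a constitutive catalytic subunit named after its value was seen, fell by 0.22 (FDR 0.0358).

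Genes of class II antigen processing were mixed: of 10 listed, 8 had a window, and the authors' deposited table called 1 higher and 1 lower (median 0.13). These are 12.5% in each direction, where 19.6% of all windows were higher and 10.3% lower. Marchf8, a ubiquitin ligase that removes class II molecules from the surface, rose by 0.38 (FDR 2e-05). Lgmn, a lysosomal protease, went from 10.67 to 9.11 (change -1.56, implied standard error 0.22, FDR 4.01e-11). Within 5 Mb of Lgmn the median change was -0.29 (41 windows). Of 20 regulators of MHC genes, 15 had a window, and 2 were higher (13.3%) and 0 lower (median 0.09), beside 19.6% and 10.3% of all windows. The 2 were Rfx5, the DNA-binding subunit of RFX (0.24, FDR 0.00962), and Ezh2, the Polycomb methyltransferase (0.21, FDR 0.0176). Neither Rfx5 nor Ezh2 was called against the median of all windows, and the Rfx5 window lay 4326 bases inside the gene. No window was assigned to Ciita or Nlrc5. Of 10 interferon gamma signalling genes 1 was higher, the feedback inhibitor Socs1 (0.27, FDR 0.0013), and 1 lower, the receptor chain gene Ifngr2 (-0.51, FDR 2.42e-08), in the authors' deposited table (median 0.05). That is 10% in each direction, beside 19.6% and 10.3% of all windows. Socs1 and Ifngr2 both lie in regions that shifted: within 5 Mb the median change was -0.55 around Ifngr2 (48 windows) and 0.38 around Socs1 (31 windows).

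**Figure D4:**
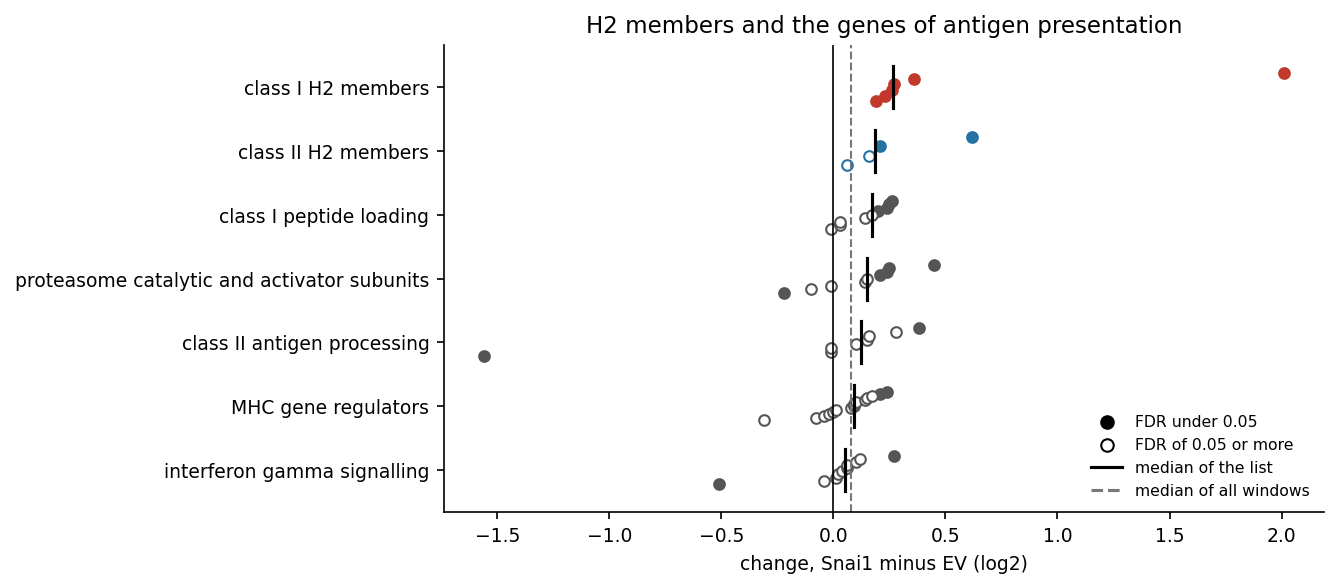
Points are the changes of the windows of the H2 members and of 5 antigen presentation lists, without the cell type markers (filled: FDR under 0.05), bars the list's median and the dashed line the median of all windows, 0.08. The medians of the groups shown run from 0.27 (class I members) to 0.05 (interferon gamma signalling), and H2-K1 and Lgmn lie furthest from them.

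Markers of the labelled cell type and of cells that carry class II were read beside these values. Of 12 blood progenitor genes 10 had a window, with a log2 summed level of 14.25 in EV and 14.28 in Snai1; the authors' deposited table called 4 higher and 2 lower, led by Runx1 (-0.61), Cd34 (-0.39), Tal1 (0.41) and Meis1 (0.26), beside 19.6% and 10.3% of all windows. The median change within 5 Mb was -0.58 around Runx1 and -0.26 around Cd34, and against the median of all windows 2 of the 10 were higher and 2 lower. The Tal1 window lay 1385 bases inside the gene. Of 6 B cell genes 1 had a window, Cd79b, at 6.59 and 6.40. Of 7 dendritic cell genes 2 had one (log2 summed level 9.95 and 10.33), and 1 was called higher, beside 19.6% of all windows. Itgax rose by 0.98 (implied standard error 0.30, FDR 0.00664). Flt3 did not pass, at 9.38 in EV and 9.35 in Snai1 (change -0.03, FDR 0.845). Of 7 macrophage genes 5 had a window. Among those reported, Cd14 rose by 1.03 (FDR 9.48e-05) and Fcgr1 by 0.30 (FDR 0.0128). Cd68 (-0.23, FDR 0.101) and Csf1r (0.04, FDR 0.88) did not pass. Against the median of all windows Cd14 kept its call (0.95, re-tested FDR 3.81e-04) and Fcgr1 did not (0.22, re-tested FDR 0.102). Cd68 was then called lower (-0.31, re-tested FDR 0.0286). Of 8 fibroblast genes 1 had a window, Pdgfrb (10.14 and 10.21). The part of other cell types in the H2 values was not tested.

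Matches to the Y box, AANNGAAAC and the X1 core were in members of both classes. Those to the kappaB element, GAAANNGAA and the X2 core were in class I members only. The kappaB match GGGATTCCC, in 0.353% of 32851 RefSeq promoters, was in H2-K1 (124 bases before the start) and H2-D1 (170 bases before). AANNGAAAC, in 5.77% of promoters, was in H2-K1, H2-D1, H2-T22 and H2-Oa, and GAAANNGAA, in 8.56%, in H2-T22 and H2-T23, overlapping the former in H2-T22. The Y box ATTGG, in 37.4% of promoters, was in 7 of 8 members, all but H2-DMa, which was read at its inner start only. The X1 core AGCAAC (14.8% of promoters) was in H2-Oa, H2-Ob and, on the opposite strand after the start, H2-T23, and the X2 core TGACG (20.8%) in H2-K1, H2-D1 and H2-T22. In H2-T22 the X2 match lies 22 bases before the start and after its Y boxes, unlike in H2-K1 and H2-D1. CAGGTG, an E-box that Snai1 can bind, was in 0 of 8 member promoters and in 20.2% of all; this says only that those letters are not in these 300 bases. GC content ran from 40.7% in H2-Ob to 73.0% in H2-DMa, with 58.3% in H2-K1 and 62.3% in H2-D1 and a median of 52.7% over all promoters.

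**Figure D5:**
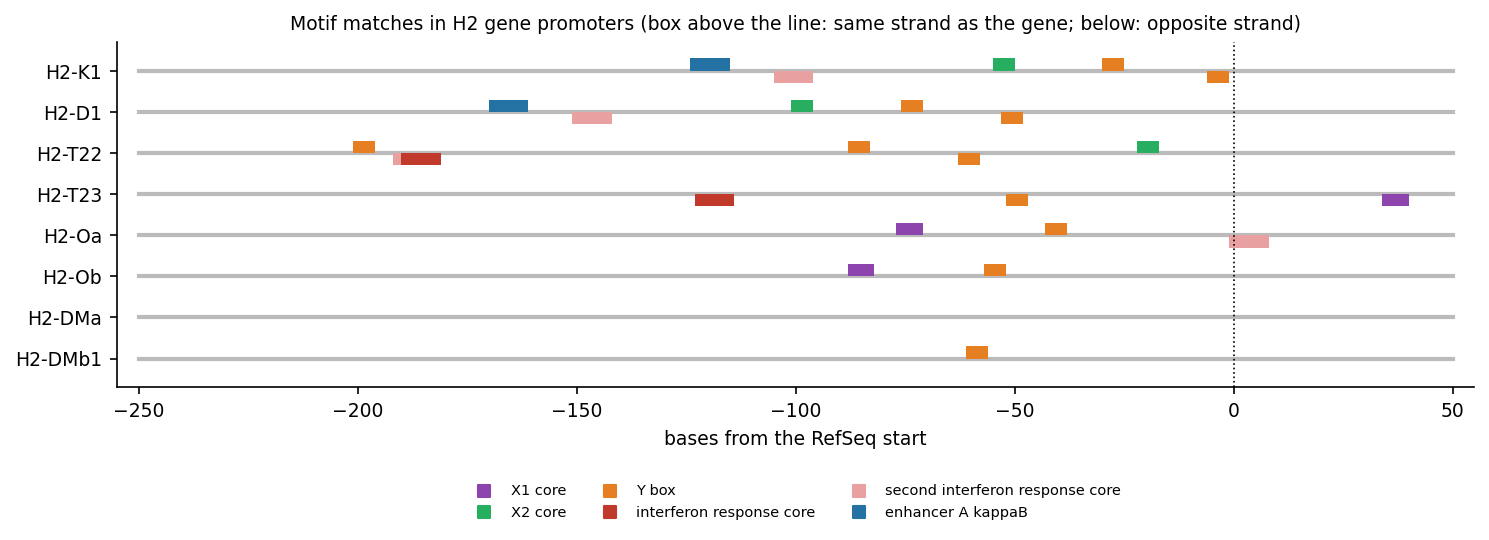
Boxes mark motif matches along 8 member promoters, by bases from the RefSeq start (above the line: the gene's strand). H2-K1 and H2-D1 show one order of matches at different distances from the start, and H2-DMa, read at a start inside the gene, has none.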

How the data were processed

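ATAC-seq libraries came from HPC7 cells with EV, Snai1 or mut5Snai1, 3 per group and 9 in all. The submitters' processing notes name the tools DiffBind, Picard, Bowtie2 and fastp and the build mm10. Tool versions, peak caller, Tn5 shift, counting rule, scaling and reads per library: not given in the sources used here, so the depth is unknown. The authors' deposited table compares EV with Snai1 over promoter windows and holds, per the file headers, log2 concentrations per group, a log2 fold, a p-value and an FDR; columns of values per sample numbered 0. Of 10274 rows, 3 repeats were dropped. Changes are Snai1 minus EV, and the authors' FDR was read at 0.05 with no test of libraries.

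Windows were assigned to RefSeq genes (GRCm38.p6) whose 5′ boundary lay within 1000 bp (8957 windows), else to a gene spanning them (1289); 25 had none. Windows were 2001 bp at plus-strand and 1101 bp at minus-strand genes, so levels between genes are given per kb. Implied standard errors are the change over the normal deviate of the authors' p-value (for changes under 0.1, the median of windows of like level in 20 bins). Re-tests subtracted a median change, with Benjamini-Hochberg adjustment over all windows. They were run on data simulated with normal noise of the implied standard errors. That cannot show whether the authors' p-values follow a normal model. Other settings are in the closing section.

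Members and lists were chosen with earlier results of these data known. Named are the members, other H2 genes, B2m, Ciita and Nlrc5, up to 4 called genes per list by FDR (the 2 with the smallest p where none was called), and the 3 largest called rises and falls of the interval. Psmb6, Psmb8, Flt3, Cd68 and Csf1r were named outside this rule, after their values were seen. The result of 1 macrophage marker, and the summed level of that list, are not reported here. AANNGAAAC was added, and 2 motifs shortened, after the sequences were seen. Python 3.11.15, numpy 2.4.6, pandas 2.3.3, scipy 1.17.1, matplotlib 3.10.9 and Biopython 1.88 were used.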

Additional observations from a re-analysis of the deposited data

How the results depend on the processing

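At an FDR of 0.01, 5 H2 members, 1 class II member and 14 windows of the interval (11 higher, 3 lower) were called. With the median of all windows subtracted these counts were 3 members (2 of class I and 1 of class II) and 13 windows (6 higher, 7 lower), the class medians were 0.185 and 0.105, and H2-DMa turned to -0.02. With the median of the rest of chromosome 17 subtracted they were 2 members (1 of each class) and 11 windows (3 higher, 8 lower), the medians were 0.165 and 0.085, and H2-DMa was -0.04. Which of these centres is right was not tested. H2-K1 and H2-Ob kept their calls under both centrings and at 0.01. Using the window with the smallest p per gene, only windows at a 5′ end, or no windows in the lowest decile of level (which drops H2-K1 and H2-DMb1) left every count within 1.5 times its value, while the gap between the class medians went from 0.08 to 0.055 with 5′ windows only and to 0.05 without the lowest decile. No paired analysis was possible because the table holds 1 value per group and none per library, and leaving out replicates was not run for the same reason. Depth per library is unknown, so what it limits cannot be stated.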
